A study of Mus musculus with 49 samples.

Results

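Open chromatin between genes was measured by ATAC-seq, in which a transposase cuts accessible DNA, in naive CD4 T cells of the mouse. The authors' table holds 86911 peaks. The 21799 peaks described here, 25.1% of the table, are those whose section was given as Intergenic or to which no gene was assigned, and every one of them met both conditions. The cells came from untreated C57BL/6 mice that were wild type (WT) or labelled as knockout for Elf4 (KO), with 3 libraries of each genotype. The labels give no age, no sex and no description of the allele, and nothing says that libraries came from separate animals, so p-values measure only the spread between these libraries. A separate RNA set of naive CD4 T cells, 3 WT and 4 KO-labelled libraries from the same strain, was used for the genes beside the peaks. The rest of the series, from macrophages and Th17 cultures, was not analysed here.

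Distal open sites are mostly enhancers, silencers and insulators: stretches of DNA where transcription factors displace nucleosomes and act on a gene start some way off. In T cells the antigen receptor loci, the genes of the naive state and the genes switched on within minutes of stimulation are known for many such elements. Some intergenic peaks are of another kind, since transfer RNA genes, unannotated transcripts and repeated DNA copies also give ATAC-seq signal. ELF4 belongs to the ETS family of transcription factors, whose members bind a GGAA core, and it has been studied in T cells for its part in keeping lymphocytes quiescent.

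The KO label was checked first. Elf4 RNA was 191 ± 4.87 CPM (a depth-scaled count; SD, n = 3) in WT and 189 ± 13.8 CPM (SD, n = 4) in KO-labelled naive cells, a difference of -0.01 in log2(CPM + 1) with a limma adjusted p of 0.932. RNA from outside a deleted exon would not reveal a knockout, and the table gives 1 value for the whole gene. Of 23 peaks that the authors assigned to Elf4, 10 were tested and 0 passed (edgeR, smallest adjusted p = 0.288). For that reason the libraries are called KO-labelled throughout.

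The libraries held 6.19 to 9.71 M counts in peaks in WT and 9.61 to 13.7 M in the KO-labelled group. As sums, open gene starts were highest for the list drawn up for CD4 T cells. The 6 genes of that list all had a peak at their start, with a summed level of 365 to 475 CPM per library. Only Cd4 among them sets CD4 apart from CD8 T cells, and Cd3d alone stood at 213 CPM. Against that, 3 of 8 CD8 T and NK cell markers (38.8 to 44.9 CPM), 3 of 9 B cell markers (7.75 to 10.6 CPM) and 3 of 9 myeloid markers (4.74 to 7.54 CPM) had one. The start of Cd4 itself, at 3.75 CPM, was the lowest of the 6. On the CD8 T and NK cell list, Cd8b1 (28.2 CPM), Prf1 (8.66 CPM) and Klrd1 (4.15 CPM) were higher than Cd4. So was Ebf1 (7.04 CPM) on the B cell list, while the remaining B cell and myeloid starts with a peak were lower. No start peak was listed for Cd8a, Ms4a1, Lyz2 or Csf1r. Neither the sum nor the starts of Cd4 and Cd8b1 therefore told CD4 from CD8 T cells. The CD4 T cell sum was 456 ± 30.0 CPM in WT and 395 ± 29.9 CPM in the KO-labelled group, which overlapped. The B cell sum was 8.60 ± 0.845 and 10.2 ± 0.339 CPM, with no overlap. Their part in the results was not tested. WT replicate 1 stood apart from the other WT libraries. Over the tested intergenic peaks its log2 level correlated at 0.942 to 0.943 with the other WT libraries, against 0.958 between WT replicates 2 and 3 and 0.960 to 0.975 among the KO-labelled ones. In the same library the 20 highest peaks of the whole table took 12.1% of counts, against 8.52% and 3.85% in WT replicates 2 and 3 and 5.99 to 8.43% in the KO-labelled group.

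Although assigned to no gene by the authors, 3756 of the intergenic peaks (17.2%) overlapped a RefSeq gene or promoter window of build GRCm38.p6, the build that corresponds to the mm10 of the files. A promoter window runs from 250 bases before to 50 bases after a gene's start. In the RefSeq sequence table, 242 windows overlapped intergenic peaks. Taking for each window only the peak with the longest overlap gave 228 peaks. Shown are the windows of the 4 highest peaks among those that hold a window whole, with the one window that touches a peak called different between the groups. These gene models were picked after their values were seen. All sequences are from RefSeq, 5′ to 3′ on the gene's strand. In the first 4, capitals mark matches on either strand to CTTTGA (TCF/LEF factors), TGANTCA (AP-1), AGGGGGC (a fragment of the CTCF motif) or CGGAAG (ETS factors). In the last, capitals mark the 35 bases that lie in the peak.
Gm51814 window: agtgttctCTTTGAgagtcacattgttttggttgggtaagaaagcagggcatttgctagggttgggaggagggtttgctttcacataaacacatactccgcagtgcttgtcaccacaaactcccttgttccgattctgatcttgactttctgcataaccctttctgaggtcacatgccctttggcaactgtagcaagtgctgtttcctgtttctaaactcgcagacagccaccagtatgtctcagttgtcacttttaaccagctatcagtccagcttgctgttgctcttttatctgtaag
D130051D11Rik window: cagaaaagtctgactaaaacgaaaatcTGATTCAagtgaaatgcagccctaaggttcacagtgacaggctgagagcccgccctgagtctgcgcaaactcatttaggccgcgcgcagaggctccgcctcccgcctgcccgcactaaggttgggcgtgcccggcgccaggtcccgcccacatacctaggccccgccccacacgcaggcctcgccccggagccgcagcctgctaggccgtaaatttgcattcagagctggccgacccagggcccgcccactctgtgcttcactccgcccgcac
Gm38882 window: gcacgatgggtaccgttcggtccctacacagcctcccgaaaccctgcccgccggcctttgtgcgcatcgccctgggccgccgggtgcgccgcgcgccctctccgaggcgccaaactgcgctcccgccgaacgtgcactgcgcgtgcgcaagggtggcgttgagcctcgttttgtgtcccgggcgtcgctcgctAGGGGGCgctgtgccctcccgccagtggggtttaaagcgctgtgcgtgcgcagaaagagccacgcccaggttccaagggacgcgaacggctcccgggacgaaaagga
Gm2885 window: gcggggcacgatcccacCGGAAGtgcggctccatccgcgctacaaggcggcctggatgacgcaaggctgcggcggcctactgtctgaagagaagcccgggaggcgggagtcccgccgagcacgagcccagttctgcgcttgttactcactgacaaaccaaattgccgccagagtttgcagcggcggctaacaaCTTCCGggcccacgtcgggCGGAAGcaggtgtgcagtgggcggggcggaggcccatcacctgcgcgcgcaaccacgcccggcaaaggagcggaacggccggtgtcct
Gm39767 window: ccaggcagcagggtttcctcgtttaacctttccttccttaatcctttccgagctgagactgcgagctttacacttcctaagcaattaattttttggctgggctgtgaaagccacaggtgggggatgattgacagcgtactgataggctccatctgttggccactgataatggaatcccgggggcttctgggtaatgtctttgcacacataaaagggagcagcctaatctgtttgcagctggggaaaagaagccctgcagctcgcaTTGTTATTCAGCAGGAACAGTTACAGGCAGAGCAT

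The Gm51814 window, chr10:19062529-19062828 on the plus strand, holds 1 TCF/LEF match. The D130051D11Rik window, chr15:85634346-85634645 on the plus strand, holds 1 AP-1 match, and the Gm38882 window, chr6:117879383-117879682 on the plus strand, holds 1 CTCF fragment. The Gm2885 window, chr17:6827967-6828266 on the minus strand, holds 3 ETS matches. The Gm39767 window, chr2:21964118-21964417 on the minus strand, holds none of the motifs searched, RUNX (TGTGGTT) included. Across all 242 windows in intergenic peaks, 12.4% held the ETS letters, against 32.2% of the 13219 windows in any peak of the table and 16.9% of all 32817 windows. The order was the other way for RUNX (9.50%, 3.86% and 5.27%), AP-1 (9.92%, 4.43% and 7.81%) and TCF/LEF (21.1%, 11.5% and 16.0%). The CTCF fragment stood at 10.3%, 17.1% and 10.6%. Windows in intergenic peaks were also lower in GC, with a median of 50.3% against 61.7% for windows in any peak and 52.7% for all. A match is a run of letters and not a bound site, and base composition differs along with the motifs.

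Intergenic peaks were narrow and weak beside those at gene starts. Their median width was 320 bp (quartiles 188 and 473 bp) against 544 bp at gene starts, and their median level per length was 3.58 CPM per kb against 11.5 at gene starts and 3.18 in introns. The plot of levels by section shows the same order. The counts were concentrated: 944 of the peaks (4.33%) held 50% of them. At the top, 86 peaks exceeded 100 CPM and 2375 (10.9%) exceeded 10 CPM, while 48.9% lay below 1 CPM. A median intergenic peak had 6 to 14 counts per library, and 411 to 1866 of the peaks had no count at all in a given library. Consequently 11274 (51.7%) passed the filter on low counts and were tested, against 69.1% of peaks at gene starts.

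**Figure D1:**
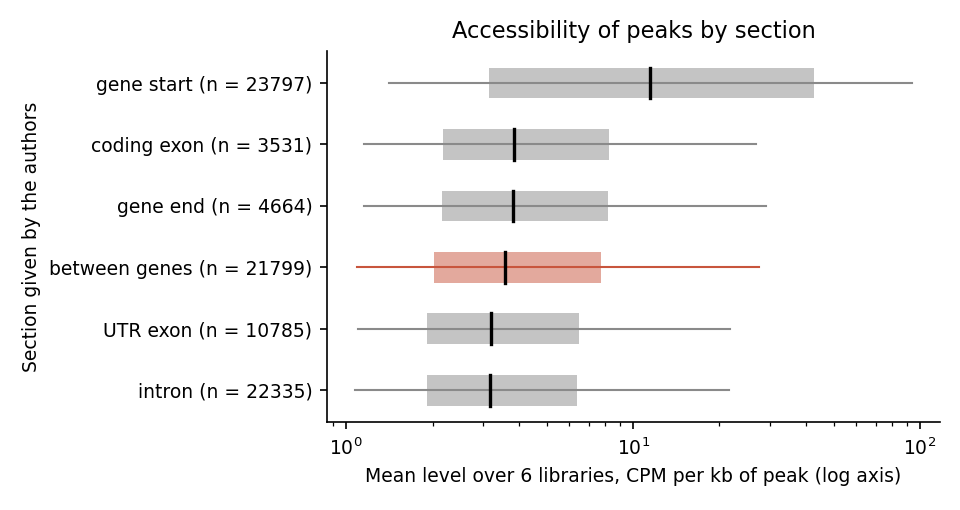
Mean level over 6 libraries, in CPM per kb of peak on a log axis, for the sections given by the authors. Boxes span the quartiles, the line in each box is the median and the thin lines run from the 5th to the 95th percentile over peaks. Peaks between genes (red) have a median of 3.58 CPM per kb, close to introns at 3.18 and below gene starts at 11.5.

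Together the intergenic peaks took 10.4%, 11.0% and 11.4% of peak counts in WT replicates 1, 2 and 3, and 11.2%, 10.7% and 10.7% in KO-labelled replicates 1, 2 and 3. The groups overlapped. Their means were 11.0 ± 0.524% and 10.9 ± 0.298% (SD, n = 3 each), a difference of -0.112 percentage points (two-sided exact permutation p = 0.9, where 3 against 3 cannot go below 0.1). Without WT replicate 3 the difference was 0.127 points, so its sign rested on that library. It was -0.392 points without WT replicate 1.

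A few intergenic peaks of very high count stood out. The highest of all, chr12:120028635-120029015, is 380 bp wide, overlaps no RefSeq gene and lies 7.39 kb past Tmem196, with no gene of the RefSeq table on its other side. It held 26752, 22207 and 24626 counts in WT and 36220, 33659 and 38811 in KO-labelled replicates 1 to 3. Scaled, that was 4695, 3444 and 2474 CPM in WT and 2635, 3584 and 2901 CPM in the KO-labelled group, or 8655 CPM per kb, against a median of 3.58 for intergenic peaks. The groups overlapped (log2 fold change -0.22 ± 0.29 SE, edgeR adjusted p = 0.865), and without WT replicate 1 the sign turned (0.05, adjusted p = 0.967). WT replicate 1 was the highest library and WT replicate 3 the lowest.

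The next, chr12:97061427-97061792, lies far from genes: the nearest protein-coding ones are Galc at 1140 kb and Flrt2 at 1276 kb. It stood at 971 CPM in WT replicate 1 but at 314 and 302 CPM in replicates 2 and 3, with 593, 516 and 401 CPM in the KO-labelled libraries. WT replicate 1 exceeded each of the others and the KO-labelled libraries lay between the 3 WT values (log2 fold change -0.07 ± 0.58 SE, adjusted p = 0.984). Without WT replicate 1 the sign turned and the log2 fold change was 0.72 (edgeR unadjusted p = 0.0422, adjusted p = 0.333). These were the only intergenic peaks among the 20 highest of the table. The 20 highest intergenic peaks took 0.844%, 0.730% and 0.671% of peak counts in WT and 0.663%, 0.762% and 0.672% in KO-labelled replicates. The means were 0.748 ± 0.0877% and 0.699 ± 0.055% (SD, n = 3 each; two-sided exact permutation p = 0.6). Without WT replicate 1 the difference went from -0.0493 to -0.00157 percentage points.

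A row of roughly evenly spaced peaks lay on chromosome 6. Between chr6:47650740 and chr6:47778937, a span of 128.2 kb, 33 intergenic peaks were called by the authors and 18 of them exceeded 40 CPM. Of the 17 distances from one of these 18 to the next, 15 lay between 4065 and 5277 bp, with a median of 4336 bp. The others were 6126 and 54573 bp. One of the 18 peaks, chr6:47654805-47655407, covers Rn4.5s (chr6:47654921-47655094), the gene of the rodent 4.5S RNA, a short transcript known to come from a tandem repeat. Reads from near-identical copies can be placed on any of them, so levels of single peaks in this row are uncertain. The 18 peaks ranged from 40.7 to 309 CPM and made up 9 of the 50 highest intergenic peaks. They took 2.13%, 2.36% and 2.43% of the counts in intergenic peaks in WT and 1.99%, 2.53% and 2.33% in KO-labelled replicates, means of 2.31 ± 0.154% and 2.28 ± 0.274%. Their log2 fold changes ran from -0.21 to 0.01. In 17 of the 18 the value was negative. No share of negative values among peaks of like level stands beside this count, and copies that share reads do not give independent signs. None passed the test (smallest edgeR adjusted p = 0.509), and 1 had an unadjusted p under 0.05, as did 9.5% of all tested peaks. Without WT replicate 1 all 18 values were negative, and 1 peak, chr6:47757773-47758117, was called lower (log2 fold change -0.34, edgeR adjusted p = 0.0028). Of all tested peaks 0.519% were called lower in that fit, a background not matched for level. In the plot of the chromosome 6 row the WT and KO-labelled means follow each other from peak to peak.

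**Figure D2:**
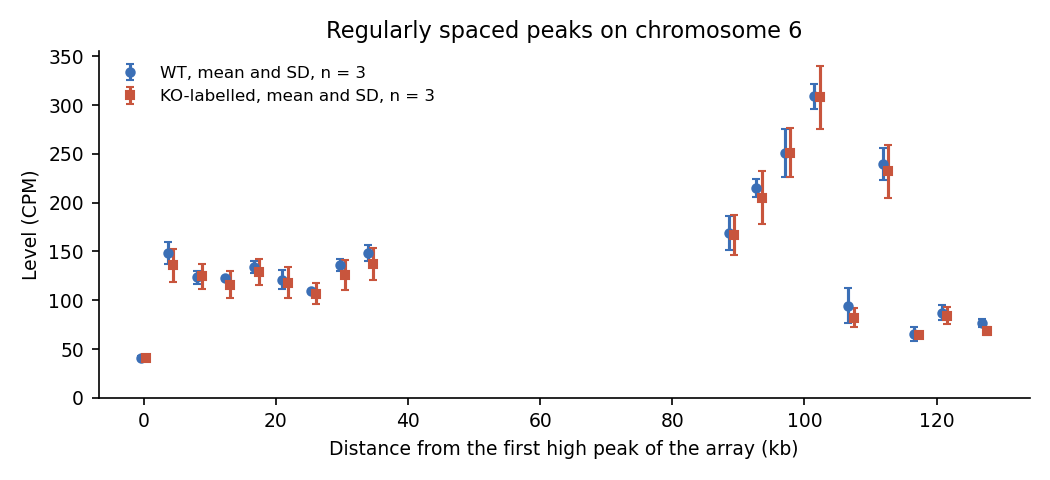
Level in CPM of the 18 peaks above 40 CPM on chromosome 6 against their distance in kb from the first of them. Points are means and bars SD over 3 libraries, WT in blue circles and KO-labelled in red squares. The peaks follow one another at 4065 to 4397 bp in the first cluster and at 4186 to 6126 bp in the second. WT and KO-labelled points lie side by side.

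Transfer RNA genes accounted for another part of the strong peaks. RNA polymerase III transcribes these short genes, and their chromatin is open. Of 408 tRNA genes in RefSeq on these chromosomes, 123 lay in 84 intergenic peaks, of which 26 held more than 1 and the fullest held 4. Their median level was 28.5 CPM per kb, against 3.53 for the 18043 intergenic peaks that overlap no RefSeq gene, and 7 of the 50 highest intergenic peaks held a tRNA gene. The highest, chr3:96499571-96501961, covers 4 tRNA genes and had 1070, 1495 and 2206 counts in WT and 2424, 1870 and 2392 in KO-labelled replicates. Scaled, it stood at 214 ± 23.1 CPM in WT and 185 ± 12.5 CPM in the KO-labelled group (log2 fold change -0.21 ± 0.07 SE, edgeR adjusted p = 0.343). Of the 84, 75 were tested and 0 passed, with 6 (8%) at an unadjusted p under 0.05, all with lower KO-labelled levels. Over all tested peaks that share was 9.5%. Without WT replicate 1, 3 of 75 were called, all lower. Of all tested peaks 0.519% were called lower in that fit, a background that was not matched for level. The called tRNA peaks were the chromosome 3 peak above (log2 fold change -0.28, edgeR adjusted p = 0.000957), chr11:97987623-97989271 (-0.29, 0.00108) and chr13:21710034-21711301 (-0.25, 0.0491). Log2 fold changes ran from -0.43 to 0.51. As a class they took 3.34 ± 0.225% of the counts in intergenic peaks in WT and 3.30 ± 0.132% in the KO-labelled group (SD, n = 3 each). The tRNA class and the chromosome 6 row were described after their values were seen.

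**Figure D3:**
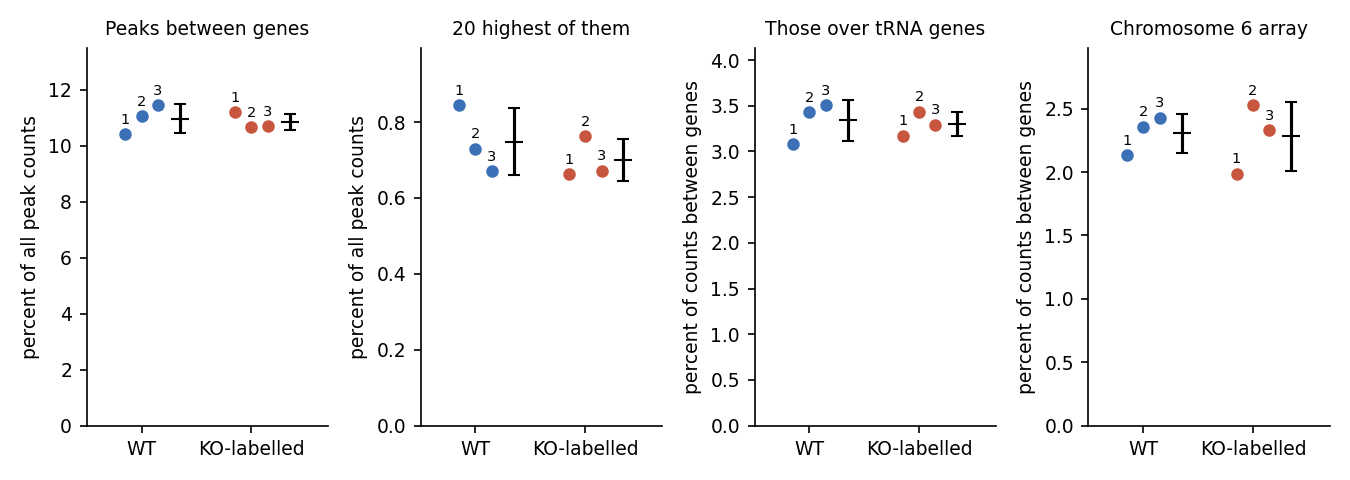
Share of counts by library, in percent of all peak counts (left pair of panels) or of counts in peaks between genes (right pair, tRNA genes and chromosome 6 row). Dots are libraries numbered by replicate, WT in blue and KO-labelled in red, and the black mark and bar are the mean and SD, n = 3. In every panel the groups overlap, for example 10.4 to 11.4% in WT and 10.7 to 11.2% in the KO-labelled group for all peaks between genes.

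The remaining classes were weaker. Each peak was counted in a single class, in the order tRNA gene, other short RNA gene, promoter window, long noncoding RNA, protein-coding gene. So counted, 262 peaks fell at a promoter window (median 6.32 CPM per kb). Another 2520 lay over the body of a long noncoding RNA (3.61) and 639 over a protein-coding gene body (3.82). The peak over the Gm51814 window, chr10:19061687-19063067, lies 46.3 kb from Tnfaip3, the gene of the NF-kappa B inhibitor A20. It held 1331, 1487 and 2461 counts in WT and 3263, 2138 and 2894 in KO-labelled replicates, or 237 ± 8.89 and 227 ± 10.6 CPM (log2 fold change -0.06 ± 0.06 SE, edgeR adjusted p = 0.773). The groups overlapped. The peak over the Gm2885 window with its 3 ETS matches, chr17:6827415-6828796, had 143 ± 9.08 CPM in WT and 131 ± 5.17 CPM in the KO-labelled group (log2 fold change -0.12 ± 0.06 SE, adjusted p = 0.575). Levels at the D130051D11Rik window were 197 ± 8.96 and 188 ± 6.58 CPM, and at the Gm38882 window 179 ± 4.83 and 168 ± 1.24 CPM, with adjusted p of 0.750 and 0.626.

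At the T cell receptor loci the intergenic peaks included the sites of known enhancers. The peak chr14:54226936-54228315, downstream of the alpha chain constant gene Trac by 2.74 kb and 7.17 kb from Dad1, lies where the Tcra enhancer is known to be. It held 1170, 1332 and 2179 counts in WT and 2720, 1961 and 2597 in KO-labelled replicates. At 210 ± 7.52 and 200 ± 7.66 CPM it ranked among the 8 highest intergenic peaks, and the groups overlapped (log2 fold change -0.07 ± 0.06 SE, adjusted p = 0.739). In the Tcrb locus 1 peak, chr6:41553389-41555168, between the constant gene Trbc2 and Trbv31, held 69.4% of the summed level of the 28 intergenic peaks there. It had 139 ± 5.91 CPM in WT and 130 ± 8.52 CPM in the KO-labelled group (log2 fold change -0.10 ± 0.07 SE, adjusted p = 0.677). The whole Tcrb set summed to 202 ± 10.7 and 187 ± 9.95 CPM, and the 46 intergenic peaks within Tcra to 101 ± 6.62 and 103 ± 5.57 CPM (SD, n = 3 each). In Tcra 0 of 32 and in Tcrb 0 of 15 tested peaks passed, with 0 and 1 at an unadjusted p under 0.05. Over all tested peaks 0.0872% were called and 9.5% had such an unadjusted p. Without WT replicate 1, 0 of 32 and 0 of 19 passed in edgeR, with 0 and 2 at an unadjusted p under 0.05. In that fit 1.22% of tested intergenic peaks and 4.52% of all tested peaks were called. The loci hold too few tested peaks for 0 calls to be read. The heavy chain locus Igh, the B cell counterpart, held 54 intergenic peaks with 86.7 ± 2.76 and 84.2 ± 1.81 CPM in all. These loci were chosen after their values were seen.

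To place the other peaks, each was given as neighbour the gene with the nearest peak at a gene start. The median distance was 25.7 kb, and 18481 peaks (84.8%) lay within 100 kb of such a start, beside 5203 genes. The median level was 4.12 CPM per kb where a peak adjoined a start peak, 4.13 within 1 kb of one, 4.56 at 1 to 10 kb, 3.54 at 10 to 50 kb, 3.02 at 100 to 500 kb and 2.89 beyond 500 kb. A gene had a median of 2 intergenic peaks, and Zfp217, a zinc finger gene, had the most with 38. Genes were ranked on the summed level of their intergenic peaks, leaving numbered gene models unnamed. Rank 1 was Rny3, with 17 peaks at 1524 ± 107 CPM in WT and 1482 ± 158 CPM in the KO-labelled group. Peaks of the chromosome 6 row were among those of Rny3 and of rank 2, a numbered model. Irf2bpl, rank 3 of 5203, a gene of the interferon regulatory factor 2 binding family, had 21 peaks with 543 ± 19.1 CPM in WT and 505 ± 17.9 CPM in the KO-labelled group. Smad7, an inhibitor of TGF-beta signalling, had 19 peaks with 362 ± 12.8 and 357 ± 22.2 CPM. Dhx40, a helicase gene, had 26 with 329 ± 13.7 and 315 ± 21.6 CPM, and the fatty acid desaturase gene Scd2 had 8 with 308 ± 10.4 and 306 ± 13.2 CPM. Tnfaip3 had 16 with 289 ± 6.58 and 278 ± 9.16 CPM, and the chemokine receptor gene Cxcr4 had 15 with 219 ± 8.05 and 222 ± 25.0 CPM. These genes, from ranks 1 to 25, were picked after their values were seen.

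Genes of the naive state carried many intergenic peaks. Of 18 genes on that list 15 had at least 1 peak within 100 kb, 147 in all, and 79 were tested. None passed (smallest edgeR adjusted p = 0.329), with 1 higher and 4 lower in the KO-labelled group at an unadjusted p under 0.05. Of all tested peaks, 9.5% had such an unadjusted p and 0.0872% were called. Their median log2 fold change was -0.06, against -0.01 over all tested peaks. The summed level was 1161, 1212 and 1248 CPM in WT and 1252, 1107 and 1171 CPM in KO-labelled replicates, and the groups overlapped. Ccr7, the receptor that guides naive T cells into lymph nodes, had 23 peaks with a summed level of 305 ± 18.1 CPM in WT and 296 ± 21.4 CPM in the KO-labelled group. Tcf7, which encodes the transcription factor TCF-1, had 12 with 286 ± 15.8 and 269 ± 25.2 CPM. Its strongest, chr11:52313631-52314876, lies 30.2 kb from the gene over a long noncoding RNA model and had 1017, 1190 and 1919 counts in WT and 2724, 1558 and 2318 in KO-labelled replicates. The groups overlapped (185 ± 7.2 and 179 ± 16.9 CPM, log2 fold change -0.05 ± 0.07 SE, adjusted p = 0.857). Btg1, an anti-proliferative gene, had 32 peaks with 202 ± 7.49 and 185 ± 11.0 CPM.

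Peaks beside genes of the T cell receptor complex and its signalling were fewer. They numbered 39 beside 11 of 18 genes. Of 21 tested 0 passed (smallest edgeR adjusted p = 0.283), with 0 higher and 2 lower at an unadjusted p under 0.05. That p was reached by 9.5% of all tested peaks. The median log2 fold change was -0.10. Lck, the kinase that starts receptor signalling, had 3 peaks with 116 ± 6.24 and 110 ± 5.46 CPM. Cd2, an adhesion and costimulation receptor gene, had 10 with 130 ± 9.55 and 115 ± 11.1 CPM. The strongest on the list, chr2:11159236-11161800, lies 10.1 kb from Prkcq, the gene of protein kinase C theta. It had 456, 616 and 838 counts in WT and 1242, 689 and 1051 in KO-labelled replicates (86.6 ± 8.03 and 80.8 ± 8.71 CPM, log2 fold change -0.10 ± 0.08 SE, adjusted p = 0.762).

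Effector and lineage genes had 104 intergenic peaks beside 13 of 28 genes. Of 56 tested 0 passed, with 2 higher and 2 lower at an unadjusted p under 0.05, which 9.5% of all tested peaks had. The median log2 fold change was -0.03. Il2, the gene of the T cell growth factor interleukin 2, had 17 peaks with 115 ± 8.59 and 109 ± 14.4 CPM. Pdcd1, which encodes the inhibitory receptor PD-1, had 9 with 131 ± 1.55 and 119 ± 16.2 CPM. The strongest of these, chr1:94034834-94036051, lies 2.25 kb from Pdcd1 and had 531, 586 and 927 counts in WT and 1347, 742 and 983 in KO-labelled replicates (log2 fold change -0.14 ± 0.09 SE, adjusted p = 0.651). The smallest adjusted p on the list, 0.135, was at Il2ra, the gene of the interleukin 2 receptor alpha chain. Its 4 peaks summed to 33.8 ± 7.1 CPM in WT and 22.7 ± 1.32 CPM in the KO-labelled group.

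Immediate early genes respond within minutes to receptor signals. Beside 9 of 15 genes lay 63 peaks with a median of 6.62 CPM per kb. Of 36 tested 0 passed (smallest edgeR adjusted p = 0.260), with 0 higher and 3 lower at an unadjusted p under 0.05. The background for such a p was 9.5% of all tested peaks. Their median log2 fold change was -0.11, and the summed level was 1085, 1040 and 1066 CPM in WT against 1009, 985 and 1020 CPM in KO-labelled replicates. Every WT library was above every KO-labelled one. Of all single tested peaks 7.74% lay so, which is no background for a sum over 63 peaks. Sums over all intergenic peaks of a chromosome lay so on chromosomes 4, 8, 14 and 15 and overlapped on the others. Their mean was lower in the KO-labelled group on every chromosome. Whether the order is particular to these genes was not tested. Fos had 12 peaks with 247 ± 20.4 and 244 ± 5.2 CPM, Nr4a1 5 with 153 ± 9.2 and 147 ± 5.17 CPM, and Cd69, an early surface marker of activation, 11 with 125 ± 8.53 and 112 ± 15.7 CPM. The strongest, chr4:48042672-48043888, lies 1.19 kb from Nr4a3, a nuclear receptor gene, and had 1210, 1291 and 1862 counts in WT and 2515, 1787 and 2643 in KO-labelled replicates. Its levels overlapped between groups (200 ± 12.6 and 190 ± 7.28 CPM, log2 fold change -0.07 ± 0.06 SE, adjusted p = 0.764).

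Genes of ETS factors, the family of ELF4, had 40 intergenic peaks beside 8 of 12 genes. Of 21 tested 0 passed (smallest edgeR adjusted p = 0.401), with 1 higher and 0 lower at an unadjusted p under 0.05. Such a p was found in 9.5% of all tested peaks. The median log2 fold change on the list was 0.10. Ets2 had 8 with 93.5 ± 10.4 and 101 ± 1.63 CPM. Its strongest, chr16:95749092-95750565, 28.0 kb from the gene, had 280, 420 and 590 counts in WT and 853, 493 and 801 in KO-labelled replicates (log2 fold change 0.01 ± 0.10 SE, adjusted p = 0.989; -0.07 without WT replicate 1). The intergenic peak nearest to Elf4, chrX:48409670-48410622, lies 0.427 kb from the edge of the gene, between Elf4 and Bcorl1. It had 192, 198 and 307 counts in WT and 466, 320 and 470 in KO-labelled replicates. At 33.7, 30.7 and 30.8 CPM against 33.9, 34.1 and 35.1 CPM the KO-labelled libraries were above the WT ones by a narrow margin (log2 fold change 0.12 ± 0.10 SE, adjusted p = 0.758).

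Whether these sites open or close without ELF4 is the question the design puts to the table. Of 11274 tested intergenic peaks 4 were called (edgeR quasi-likelihood test over all 47000 tested peaks, Benjamini-Hochberg adjusted p under 0.05), all 4 higher in the KO-labelled group and 0 lower. Over all tested peaks 0.0872% were called, 0.0851% higher and 0.00213% lower, and no difference between sections was read from so few calls. At an unadjusted p under 0.05 there were 938 intergenic peaks (8.32%), 478 higher and 460 lower, against 9.5% of all peaks. The KO-labelled libraries all lay above the WT ones in 820 and all below in 781 intergenic peaks, with 7.52% and 7.74% as the background over all peaks. The median log2 fold change of intergenic peaks was -0.01, as for all peaks, with quartiles of -0.20 and 0.22. DESeq2 also called 4, all higher, of which 3 were the same. The other, chr10:111924045-111924574, is 47.8 kb from a start peak of Krr1 and had an adjusted p of 0.0356 in DESeq2 and 0.0638 in edgeR. None of the peaks DESeq2 called lay beside a gene of the 5 lists, over a tRNA gene, in a receptor locus or in the chromosome 6 row. In bulk libraries, a site open in more cells and a site more open in each cell cannot be told apart.

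**Figure D4:**
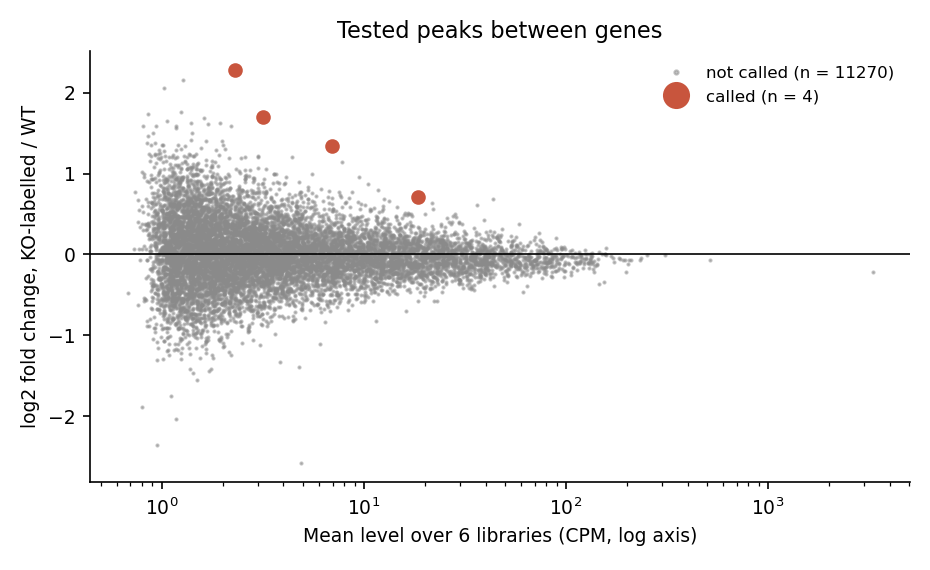
Log2 fold change, KO-labelled over WT, against the mean level in CPM (log axis) for the 11274 tested peaks between genes. The 4 called peaks (red) all lie above 0, between 2.30 and 18.5 CPM, and the peaks that were not called (grey) scatter about the line at 0, more widely at low levels.

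The called peaks were weak to moderate. The one with the most counts, chr7:106296585-106297261, lies in a gap with no protein-coding gene nearer than Gvin1, a gene of the interferon-inducible very large GTPases, at 81.2 kb. It held 72, 86 and 158 counts in WT and 330, 212 and 301 in KO-labelled replicates, or 13.9 ± 1.7 and 23.0 ± 0.851 CPM (log2 fold change 0.71 ± 0.14 SE, edgeR adjusted p = 0.0407). All KO-labelled libraries were above all WT ones.

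The peak chr17:37028707-37029055 lies between Mog, a myelin protein gene 5.31 kb away, and Gabbr1, which encodes a subunit of the GABA-B receptor, at 16.9 kb. It had 17, 24 and 48 counts in WT and 124, 98 and 142 in KO-labelled replicates. The levels, 3.84 ± 0.926 and 10.0 ± 0.872 CPM, did not overlap (log2 fold change 1.34 ± 0.22 SE, edgeR adjusted p = 0.0212).

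The peak at the Gm39767 window, chr2:21963583-21964152, had 8, 12 and 12 counts in WT and 54, 54 and 64 in KO-labelled replicates. That is 1.49 ± 0.336 against 4.82 ± 0.912 CPM (log2 fold change 1.7 ± 0.31 SE, adjusted p = 0.0319). The nearest protein-coding genes are Gpr158, at 133 kb, and Myo3a, at 263 kb.

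The largest fold was at chr13:110510729-110511255, which lies 110 kb from Plk2, the gene of a polo-like kinase. It held 2, 9 and 6 counts in WT and 56, 39 and 43 in KO-labelled replicates, or 0.783 ± 0.545 against 3.81 ± 0.521 CPM (log2 fold change 2.28 ± 0.40 SE, adjusted p = 0.0248). With so few WT counts the fold depends on single reads. DESeq2 gave this peak no adjusted p.

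**Figure D5:**
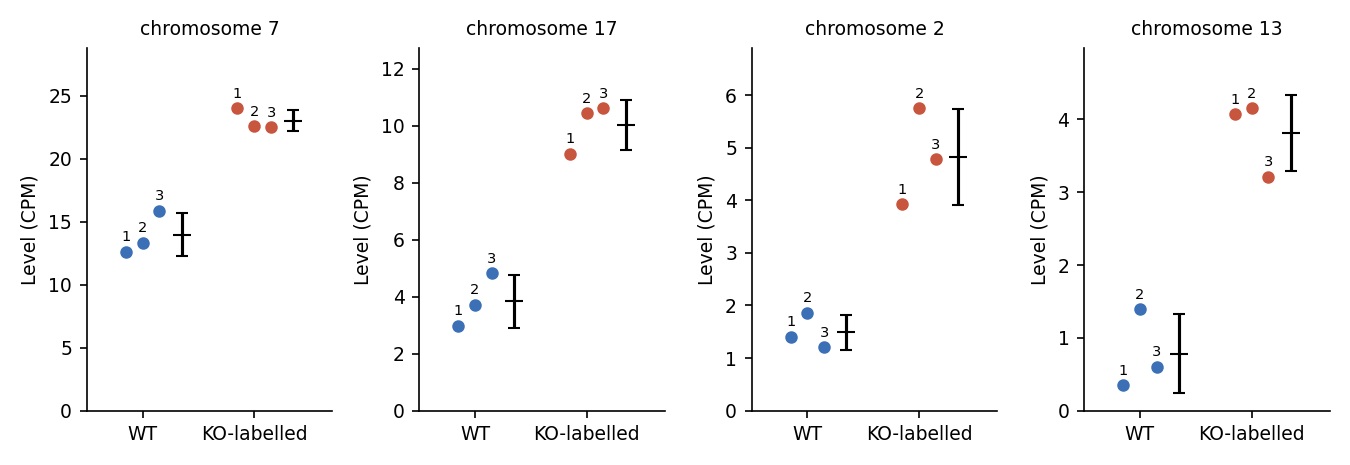
Level in CPM of the 4 called peaks between genes, named by chromosome, in each library. Dots are libraries numbered by replicate, WT in blue and KO-labelled in red, and the black mark and bar are the mean and SD, n = 3. In each panel the 3 KO-labelled libraries lie above the 3 WT libraries, from 13.9 against 23.0 CPM on chromosome 7 to 0.783 against 3.81 CPM on chromosome 13.

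The number of calls rested on single libraries. Without WT replicate 1, 148 of 12118 tested intergenic peaks were called (1.22%), 82 higher and 66 lower in the KO-labelled group, and all 4 above were among them. Over all peaks 4.52% were called in that fit, 4.00% higher and 0.519% lower, and of peaks outside the intergenic set 2117 of 38000 (5.57%), 1923 higher and 194 lower. Without WT replicate 2, or without KO replicate 1 or 3, no intergenic peak was called, with 678 to 997 at an unadjusted p under 0.05. Without WT replicate 3 the chromosome 17 peak (edgeR adjusted p = 0.0451) was the single call, and without KO replicate 2 a single other peak, lower in the KO-labelled group, was called. With 2 WT libraries the spread of the WT group is estimated from that pair and from the KO-labelled libraries. When all 6 libraries were kept and the replicate number was added as a block, edgeR called 0 intergenic peaks.

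In 91 of those 148 peaks (61.5%) WT replicate 1 lay nearer to the KO-labelled mean than to the other WT libraries, and in 48 it lay within the KO-labelled range. These peaks were selected by leaving that library out, so the counts describe them and no others. The peak with the smallest p, chr14:115040307-115041149, adjoins the start of Mir17hg, the host gene of the miR-17-92 cluster of microRNAs. It held 313, 175 and 200 counts in WT and 668, 506 and 760 in KO-labelled replicates. At 54.9 CPM WT replicate 1 was among the KO-labelled values of 48.6, 53.9 and 56.8 CPM, while WT replicates 2 and 3 were at 27.1 and 20.1 CPM. The edgeR adjusted p was 1.82e-10 without that library (log2 fold change 1.21) and 0.698 with it. A peak 4.94 kb from a start peak of Hes1, a target of Notch signalling, chr16:30070074-30070855, had WT replicate 1 just below the KO-labelled values. It stood at 11.1, 4.81 and 3.92 CPM in WT and at 12.4, 13.1 and 11.3 CPM in KO-labelled replicates, with an adjusted p of 2.03e-06 without WT replicate 1 and 0.388 with it.

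Among those lower in the KO-labelled group was chr2:11635198-11636582, 5.56 kb from a start peak of Il2ra. It stood at 21.6, 32.1 and 26.4 CPM in WT and at 18.8, 17.4 and 17.6 CPM in KO-labelled replicates, so the groups did not overlap even with WT replicate 1. The log2 fold change was -0.68 without that library (edgeR adjusted p = 0.000409) and -0.58 with it (adjusted p = 0.135). A peak beside the start of Pink1, a mitochondrial kinase gene, chr4:138327381-138327872, went from 10.7, 18.8 and 14.3 CPM in WT to 7.78, 10.0 and 7.17 CPM. Its adjusted p was 0.000284 without WT replicate 1 and 0.140 with it. Beside the 5 gene lists this fit called 3 peaks in all, 1 higher at Id3, 1 higher at Egr1 and 1 lower at Il2ra. It called 1.22% of tested intergenic peaks and 4.52% of all tested peaks, and nothing about the lists was read from 3 calls. The peaks of this fit were named after their values were seen, and the part of WT replicate 1's depth, the lowest at 6.19 M counts, was not tested.

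Spread between libraries was smaller at higher levels. At 1 to 2 CPM the median SD within groups of log2(CPM + 1) was 0.297 for intergenic peaks, 0.289 for intron peaks and 0.297 for peaks at gene starts. At 8 to 16 CPM it was 0.186, 0.190 and 0.182, and at 32 to 64 CPM 0.130, 0.131 and 0.103. The share of intergenic peaks with an unadjusted p under 0.05 was 5.57%, 10.5% and 16.4% in these 3 ranges. At gene starts it was 8.40%, 12.9% and 12.7%, so the order of the sections depended on the level.

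Among neighbours of the 4 called peaks within 100 kb, Gabbr1 and Gvin1 had measured RNA. Gabbr1 RNA was 25.4 ± 2.45 CPM (SD, n = 3) in WT and 32.4 ± 2.20 CPM (SD, n = 4) in KO-labelled cells, a difference of 0.34 in log2(CPM + 1) (limma adjusted p = 0.0275). The direction was that of the peak, and the call was lost without WT replicate 1, KO replicate 1 or KO replicate 3 of the RNA set. Gvin1 RNA was 87.2 ± 13.6 and 94.3 ± 21.05 CPM (adjusted p = 0.754). One of 2 neighbours passed where 8.03% of all 12903 tested genes did, which is too few genes to read a share from. Plk2, just outside the distance limit, had 1.05 ± 0.557 and 3.1 ± 1.35 CPM (adjusted p = 0.0569).

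Neighbours of the 148 peaks called without WT replicate 1 gave 70 tested genes, of which 7 (10%) passed in the RNA, near the background of 8.03%. In 5 the RNA and the peak moved the same way. Med12, a Mediator subunit gene, went from 44.9 ± 3.21 to 55.3 ± 3.1 CPM (adjusted p = 0.0280), and Slfn2, a gene of T cell quiescence, from 317 ± 26.7 to 257 ± 14.8 CPM (adjusted p = 0.0396). The others were Gabbr1, Tcf4 and Tle2. Abracl and Tns4 moved the opposite way, Abracl RNA from 19.9 ± 2.22 to 13.9 ± 0.642 CPM beside a peak that was higher.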

How the data were processed

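ATAC-seq was analysed in 6 libraries of naive CD4 T cells and RNA-seq in 7. Per the submitters' processing notes the build was mm10 and the tools included BWA, Bowtie2, MACS2, DESeq2 and Partek 10.0.21.0411; which served which assay, and how reads of repeats were placed, is not given in the sources used here. For ATAC-seq the authors deposited estimated counts per peak, over 1 set of peaks common to all libraries and without scaling; 60 values were not whole and were rounded. The RNA table deposited by the authors holds CPM, with 0.0001 as the lowest value. Its values step by what 1 read is worth, which gives 23.4 to 27.1 M reads per library, but 80.8 to 82.5% of values were whole reads (within 0.02), too few for a count test.

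Counts were scaled by TMM and tested in edgeR 4.0.16 (R 4.3.3; filterByExpr, glmQLFit robust, glmQLFTest, two-sided) over all peaks, called at a Benjamini-Hochberg adjusted p under 0.05. CPM of peaks are scaled to the tested counts after TMM; shares use all peak counts. RNA was tested as log2(CPM + 1) in limma 3.58.1, for genes at 1 CPM or more in at least 3 libraries. DESeq2 1.42.0, other scalings, no filter, a replicate block and each library left out were alternatives. Same-numbered libraries did not deviate together (r of -0.103 to 0.0273 in 3 pairs).

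Coordinates are as deposited, and gene bodies and promoter windows are RefSeq GRCm38.p6. Windows on chromosome 18 were not used. Named by rule were the 8 highest intergenic peaks, called peaks with at least 50 scaled counts and groups that do not overlap (8 largest each way), the 5 smallest p each way, per gene list up to 3 called peaks and the most abundant one not called, and the peak nearest to Elf4. Numbered gene models are named only for the windows printed. The members and lists were chosen with earlier results of these data known. Sequences of the peaks themselves were not used here. Counting error alone limits a peak of 10 counts, and PCR copies are not independent molecules.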

Additional observations from a re-analysis of the deposited data

How the results depend on the processing

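The count of 4 called intergenic peaks was 4 or 5 with DESeq2 size factors, loess offsets, DESeq2's own test or without the 20 highest intergenic peaks. It was 7 with total counts (6 higher, 1 lower) and 15 with no filter on low counts (11 higher, 4 lower). Leaving out 1 library gave 0 to 148 calls, 0 to 82 higher and 0 to 66 lower; the cause was not tested. The labels do not say whether the replicate numbers pair the libraries. Running numbers in the deposited column names set same-numbered WT and KO-labelled libraries near each other. Of 6 libraries 1 correlated best with its own number in the other group, which cannot settle pairing with so few libraries. With a replicate block 0 intergenic peaks were called (edgeR, 0 higher), with 745 at an unadjusted p under 0.05. A block in the RNA fit left the count of neighbours at 1. The median log2 fold change was 0.00982 with total counts, -0.0207 with loess offsets and 0.0246 with no filter, and -0.0106 to 0.0157 with 1 library left out. The difference in the intergenic share was -0.392 to 0.127 points with 1 library left out and reversed, to 0.127, without WT replicate 3. It was -0.0675 without the 20 highest intergenic peaks, and, chosen after seeing the data, -0.0832 over peaks with no RefSeq gene and -0.218 without the 20 highest peaks of the table. For the 20 highest the difference ran from -0.0879 to -0.00157 points with 1 library left out. Of 2 RNA neighbours, 0 or 1 passed with 1 library left out. The median intergenic peak has 6 to 14 counts per library, which limits its precision.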

Other observations

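Reads placed on the Y chromosome were present in every library. The 23 intergenic peaks on Y summed to 396, 354 and 238 CPM in WT and 254, 341 and 381 CPM in KO-labelled replicates. Of these peaks, 10 beyond 90 Mb held most of the sum, 293 ± 63.1 and 295 ± 63.8 CPM (SD, n = 3 each). The 8 peaks at 4 to 88 Mb summed to 23.9, 23.3 and 3.52 CPM in WT and 7.78, 16.7 and 5.83 CPM in KO-labelled replicates. Among chromosomes, the median log2 fold change of tested intergenic peaks ran from -0.13 on Y, with 14 tested, through -0.08 on chromosome 8, with 433 tested, to 0.04 on chromosome 16, with 354 tested. The share of a chromosome's peaks that were intergenic was lowest on chromosome 19 (19.6%) and highest on Y (37.7%). The intergenic peak chr15:75085736-75087045, 86.6 kb from a start peak of Ly6a, varied widely within groups, with 1448, 1091 and 722 counts in WT and 1236, 1736 and 1432 in KO-labelled replicates, and WT replicate 3, the deepest WT library, was the lowest. Another, chr16:91532930-91534590, 10.9 kb from a start peak of the interferon gamma receptor gene Ifngr2, held 212 ± 7.11 CPM in WT and 195 ± 10.4 CPM in the KO-labelled group (log2 fold change -0.12, edgeR adjusted p = 0.535). These peaks were picked after their values were seen.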
